A study of Saccharomyces cerevisiae with 83 samples.

Results

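The barcodes described here are those whose share of a yeast pool was higher after 10 generations than at the start in every strain and batch measured. They number 145 of the 4871 gene entries of the library. Pools of haploid *Saccharomyces cerevisiae* of the YPS1009 background, a North American lineage, were transformed with a library of barcoded centromeric plasmids, and each plasmid barcode stands for 1 cloned yeast gene. The members were chosen from the measured values themselves. An entry had to have a mean of at least 50 counts at generation 0 in each of 10 groups, a log2 change above 0 in each of them, and a median of at least 0.5 over the 10. A group is 1 strain in 1 batch with libraries of both generations, and the log2 change is log2 of the mean generation 10 CPM plus 1 over the mean generation 0 CPM plus 1. CPM is the barcode's counts per 1000000 counts of its library. The count minimum left 4238 entries, of which 271 (6.39%) were above 0 in all 10 groups, and 145 (3.42%) also reached the median threshold. With TMM-scaled library sizes, which set a typical barcode to no change, the same rule gave 359 entries, and all 145 members were among them.

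The 10 groups were AGY1611, AGY1612, AGY1613 and AGY1614 in batch 1, with 4 replicate cultures each (A to D), and AGY1611, AGY1613, AGY1859, AGY1860, AGY1862 and AGY1863 in batch 2, with 3 each. AGY1861, also of batch 2, was sampled at generations 0 and 5 and played no part in the choice of members. The strains comprise euploid haploids and haploids with 1 chromosome (IV, VII, XII or XV) in an additional copy, each with or without the RNA-binding protein SSD1, and the labels do not pair a strain number with a karyotype or an SSD1 state. All pools, controls included, were grown at 30 °C in synthetic medium lacking histidine, with nourseothricin at 100 mg per L to keep the amplified chromosomes and G418 at 200 mg per L to keep the plasmids. The replicates came from 2 independent library transformations in batch 1 and from 3 in batch 2. The labels do not say which lettered cultures share a transformation, and AGY1611 and AGY1613 are in both batches. In these 2 strains, the log2 changes over the 4238 entries in replicate 2 of batch 2 followed those of cultures A and B of batch 1, and replicate 3 followed C and D, with correlations of 0.916 to 0.971. The opposite matches gave 0.396 to 0.462, and replicate 1 against A to D gave 0.516 to 0.573. The cultures of the 2 batches are therefore not treated as independent repeats here.

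In such a pool, cells that carry different plasmids compete, and a barcode's share rises when the cells holding that plasmid leave more descendants, or more plasmid copies, than the pool average. A centromeric plasmid is kept at low copy, so each one adds roughly a duplicated gene to its cell, at the level its own promoter sets. More cells with a plasmid and more plasmid per cell cannot be told apart from barcode counts. Libraries held 3237303 to 8351355 counts at generation 0 and 457053 to 2993246 at generation 10 in batch 1. In batch 2 they held 1298424 to 7559499, 452054 to 5409233 and 561486 to 3506174 counts at generations 0, 5 and 10. The empty vector's log2 change ran from -1.91 in AGY1860 to 1.54 in AGY1862, both of batch 2. It was between 0.95 and 1.13 in the 4 strains of batch 1. The median over the members was lower than that in those 4 strains, at 0.64 to 0.75, and in AGY1862, at 0.58. In the other groups of batch 2 the empty vector was at -1.91 to 0.02 and the members' median at 0.58 to 0.75. A rise here is thus one against the pool average, not one over the empty vector.

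Together the members held a small part of each pool, and a larger one at generation 10 than at generation 0. At generation 0 they made up 4.03% to 4.55% of the counts of a library over the 10 groups, and at generation 10 they made up 6.29% to 10.5%. The highest share was in AGY1614, where it was 9.11% ± 1.26 (SD, n = 4) at generation 10 against 4.11% ± 0.03 at generation 0. Those 4 cultures are not independent: at generation 10, A and B held 7.91% and 8.21%, and C and D 10.5% and 9.79%. By size, 10 members had a median log2 change of 1 or more, 33 lay between 0.75 and 1, and 102 between 0.5 and 0.75. The median of the members' medians was 0.65, against -0.05 over the 4238 entries. The members' median within single groups ran from 0.58 in AGY1862 to 0.75 in AGY1612. These values follow from the choice of members and carry no test. Just inside the threshold lay SRB6 (median 0.505), BEM1 (0.503) and RPS19B (0.501), and just outside it HMS2 (0.4997), SER33 (0.4995) and PDC2 (0.498).

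**Figure D1:**
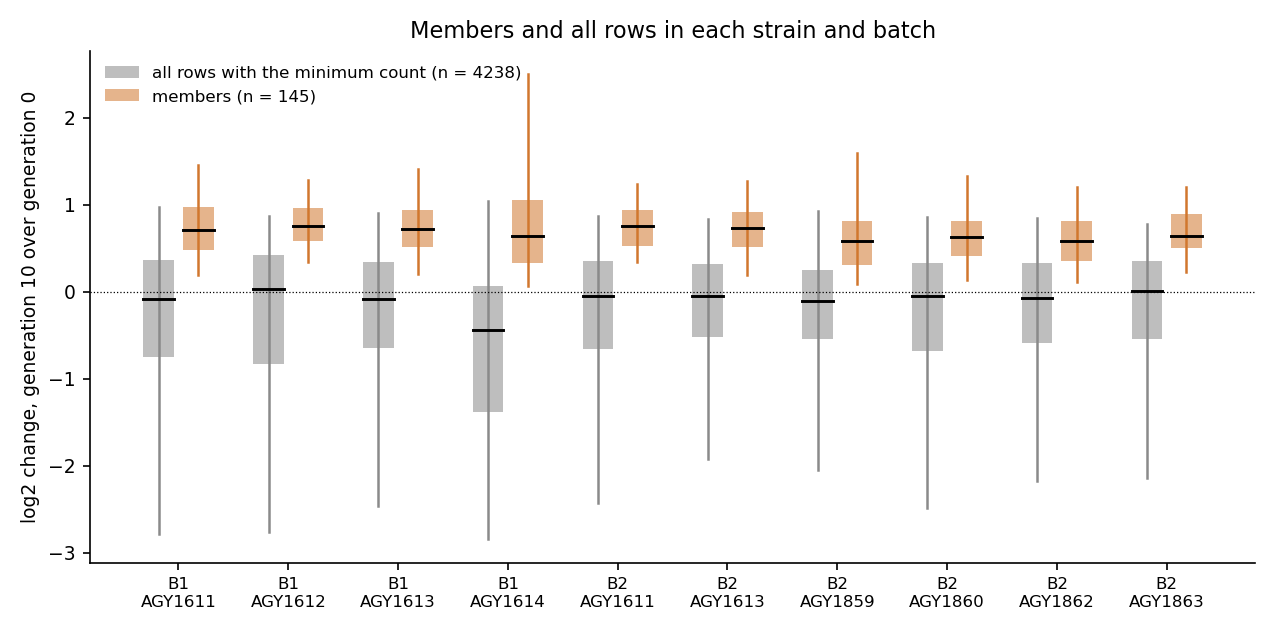
Log2 change from generation 0 to generation 10 (vertical axis) in each strain and batch (horizontal axis) for the 145 members and for all 4238 entries with the minimum count; boxes span the quartiles, black lines mark medians and thin lines run from the 5th to the 95th percentile. The members' medians lie between 0.58 and 0.75, and the widest spread of the members is in AGY1614 of batch 1.

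GLC7, which encodes the catalytic subunit of type 1 protein phosphatase, had the highest median. Its barcode stood at 179 to 302 CPM (median 251) over the 34 generation 0 libraries and at 338 to 4588 CPM (median 829) over the 34 generation 10 libraries. The lowest generation 10 value of GLC7 was thus above its highest generation 0 value, and no other of the 4238 entries (0.0236% with GLC7) was separated in this way. The log2 change of GLC7 ran from 0.96 in AGY1613 of batch 2 to 3.56 in AGY1859, with a median of 1.97. In AGY1859 its 3 cultures went from 254, 302 and 272 CPM to 3241, 4588 and 1948 CPM.

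HAL5, a protein kinase that acts on the potassium transporters of the plasma membrane, was second with a median of 1.74. Its barcode held 225 to 298 CPM (median 271) at generation 0 and 207 to 10503 CPM (median 852) at generation 10. HAL5 had the widest spread over groups of any member, with an SD of 1.27. The lowest group value was 0.60 in AGY1862 and the highest 4.39 in AGY1859, where the 3 cultures reached 3962, 10503 and 1416 CPM. It had the largest value among the members in 4 of the 10 groups: AGY1612 and AGY1613 in batch 1, and AGY1859 and AGY1860 in batch 2. It was below 0 in 1 of 34 cultures, at -0.39.

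The next members by median came from several processes. AGP2, a plasma membrane protein that controls uptake of carnitine and polyamines, had a median of 1.30, SBP1, an RNA-binding repressor of translation, 1.26, and ISC1, an inositol phosphosphingolipid phospholipase C, 1.19. CDC5, the polo-like kinase of mitosis, had a median of 1.15, and VAN1, a subunit of the mannan polymerase of the Golgi, and ZRC1, the vacuolar zinc transporter, had 1.06 each. PAB1, the poly(A)-binding protein, had 1.05 and LYS9, an enzyme of lysine synthesis, 1.03. GIM5, a subunit of the prefoldin chaperone (0.96), and TCM62, a mitochondrial chaperone (0.93), completed the first 12. Of the members with a median of at least 1, together with GIM5 and TCM62, the smallest SD over groups were those of ZRC1 (0.26), LYS9 (0.30), TCM62 (0.36), AGP2 (0.48) and ISC1 (0.54). ZRC1 thus had similar group values, from 0.62 to 1.39, while those of CDC5 ran from 0.36 to 3.65. The single cultures of ZRC1 ran more widely, from 0.03 to 2.16.

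**Figure D2:**
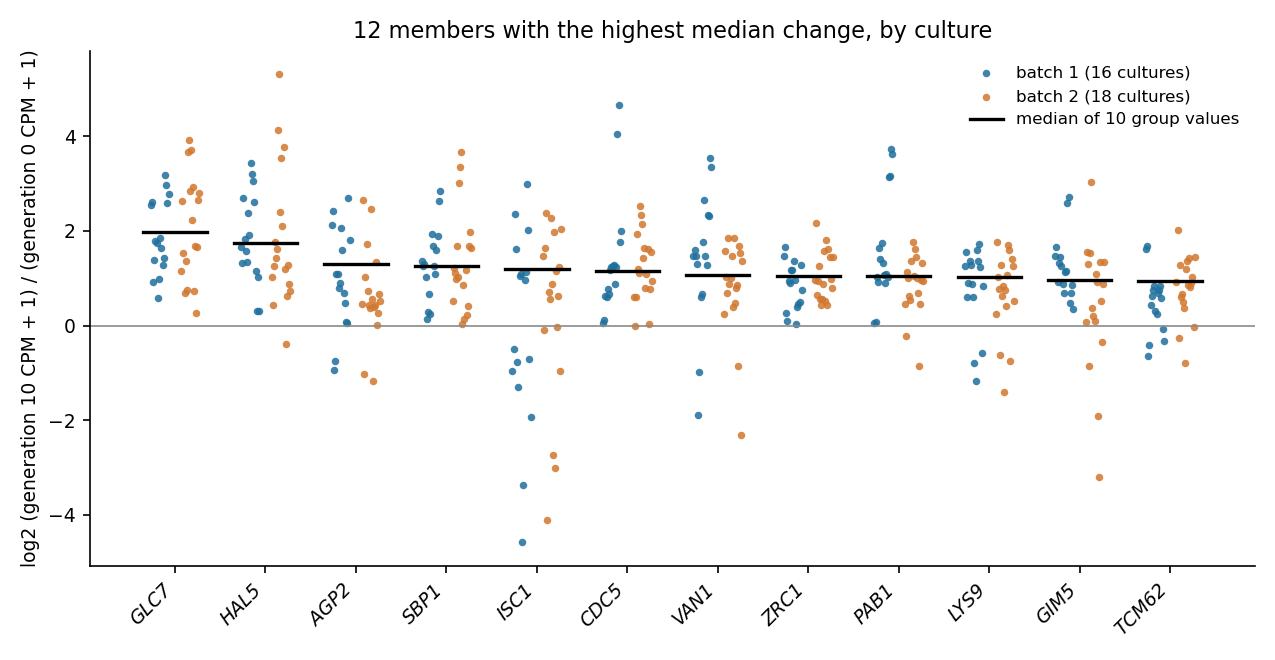
Log2 change of each of 34 cultures (vertical axis; each culture against the generation 0 library of the same letter or number) for the 12 members with the highest median, with batch 1 in blue, batch 2 in orange and the median of the 10 group values as a black line. GLC7 is above 0 in all 34 cultures, and ISC1 is below 0 in 14, where it reaches -4.58.

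A value above 0 in every group did not mean one in every culture. Of the 4930 values of a member in a culture, 4360 (88.4%) were above 0, against 41.6% over the 4238 entries. The members were chosen on the means of these same cultures, so a higher share than over all entries follows from the rule. Across the 34 cultures, several of which follow each other closely, 10 members were above 0 in all, and these were also the only ones among the 4238 entries (0.236%). They were GLC7, SBP1, ZRC1, MPF1, QDR3, LCB1, SLT2, ATP14, YNR014W and TIM12. An entry above 0 in all cultures is also above 0 in all 10 groups. Only the 271 entries above 0 in all 10 groups could therefore be among these 10. QDR3 is a multidrug transporter, LCB1 a subunit of serine palmitoyltransferase, which starts sphingolipid synthesis, and SLT2 the MAP kinase of the cell wall integrity pathway. ATP14 is a subunit of the mitochondrial ATP synthase and TIM12 a component of the import machinery for inner membrane proteins. Their lowest single cultures lay between 0.01 (ATP14) and 0.26 (GLC7). Without replicate 2 of batch 2, 17 members were above 0 in every remaining culture. A median member was above 0 in 30 cultures, and 94 members were above 0 in at least 30. The counts of 17 and 94 were not made over all entries.

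At the other end, ISC1 was above 0 in 20 of 34 cultures, and MTD1, a dehydrogenase of folate metabolism, and TOH1 were above 0 in 21 each. ISC1 had few counts, with 28.4 to 47.2 CPM at generation 0 and 0.511 to 345 CPM at generation 10. In AGY1613 of batch 2, its 3 cultures changed by 2.39, -4.11 and 0.70, so the second culture went against the group's mean of 1.26. A rule on the mean of the single cultures' log2 ratios in place of the mean CPM kept 100 of the 145 members and gave no others.

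The smallest spread over the 10 groups was that of NDC80, a subunit of the outer kinetochore. Its group values lay between 0.61 and 0.85 (SD 0.09), yet its single cultures ran from -0.95 to 1.47. LCB1 came next, with group values of 0.58 to 1.05 (SD 0.13) and cultures of 0.12 to 1.54. The median SD over groups was 0.33 for the members and 0.48 for the 4238 entries, and the rule, which excludes values below 0, narrows the first. Only 7 members were at 0.5 or more in all 10 groups: GLC7, HAL5, ZRC1, LPD1, TCD2, LCB1 and NDC80. Any entry with such values meets the rule, so these were also the only 7 among the 4238 entries. LPD1 is the dihydrolipoamide dehydrogenase of mitochondria, and TCD2 modifies tRNA. No member reached 1 in all 10 groups, and GLC7 reached it in 9.

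In batch 1, cultures fell into 2 pairs. Over the 4238 entries, the log2 changes of cultures A and B correlated at 0.94 to 0.97 within a strain, and those of C and D at 0.89 to 0.96, while A or B against C or D gave 0.44 to 0.73. Over the 145 members alone, the correlations were 0.817 to 0.96 within a pair and -0.224 to 0.0995 across pairs, so that the size of a member's change in 1 pair was not matched by its size in the other. The members were chosen on the mean over these cultures, which bears on that value. These correlations are across entries of libraries that share a strain and are not independent replicates. Of the 145 members, 59 were above 0 in both pairs of all 4 strains, against 115 of 4238 entries (2.71%). The rule asked for a mean above 0 over these cultures, so a higher share among members, here and by strain, follows from it. By strain, 108 members were above 0 in both pairs of AGY1611 (23.6% of entries were), 134 in AGY1612 (35.6%), 123 in AGY1613 (23.6%) and 98 in AGY1614 (12.8%). The strains had the highest and lowest member counts where the share over all entries was highest and lowest.

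Several of the largest values belonged to 1 pair of cultures. PAF1, a subunit of the Paf1 complex of transcription elongation, had the largest value of AGY1614, 4.33. Its cultures went from 307, 305, 292 and 319 CPM to 291, 266, 15875 and 8157 CPM, so that C and D were far higher than A and B. Without AGY1614, the group values of PAF1 lay between 0.46 and 1.11. NDL1, a dynein regulator, showed the same split in AGY1614, with a mean log2 change of -0.21 in A and B and of 4.26 in C and D. CDC5 was above 0 in both pairs of that strain, at 4.36 in A and B and 1.88 in C and D. For ISC1 the 2 pairs had opposite signs in all 4 strains of batch 1, and which pair was higher differed between AGY1614 and the other 3 strains. GLC7 was above 0 in both pairs of every strain, with 0.78 to 3.08.

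**Figure D3:**
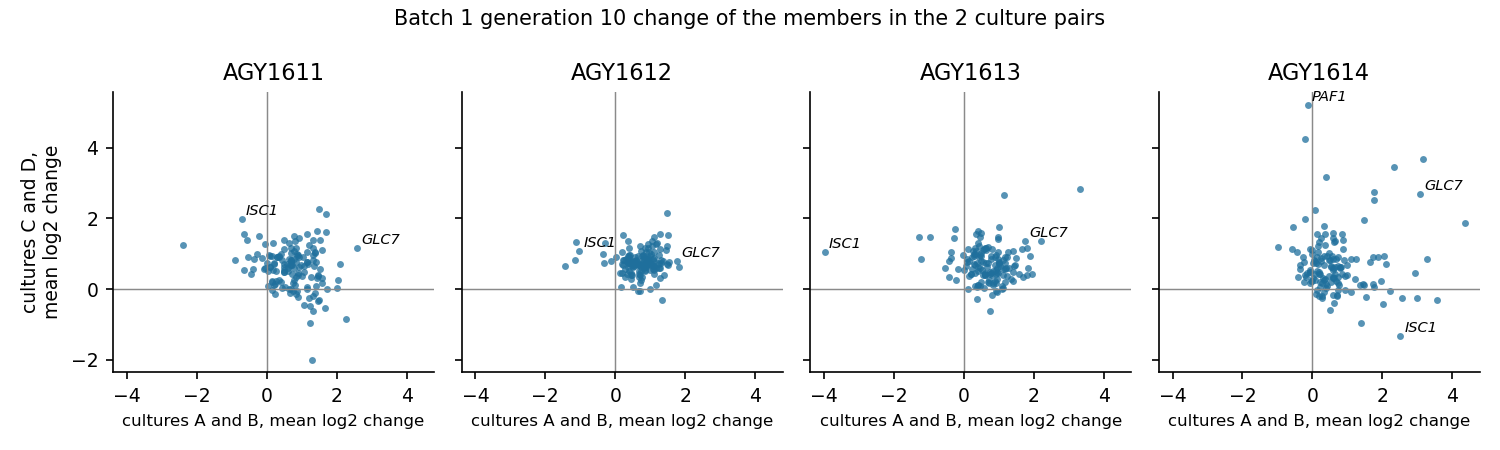
Mean log2 change of the 145 members in cultures A and B (horizontal axis) and in cultures C and D (vertical axis) of the 4 strains of batch 1, with 1 point per member. Points in the upper right of a panel were above 0 in both pairs; PAF1 in AGY1614 is at -0.14 and 5.22.

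Both batches held AGY1611 and AGY1613. The members' median in AGY1611 was 0.71 in batch 1 and 0.75 in batch 2, and in AGY1613 it was 0.72 and 0.73. The median distance between a member's 2 values was 0.11 in AGY1611 and 0.13 in AGY1613. In AGY1611, ATG32, the mitophagy receptor of the outer mitochondrial membrane, was at 1.93 in batch 1 and 2.02 in batch 2, and at 0.13 to 1.25 in the other 8 groups. GIM5 was highest in AGY1613, at 2.10 and 1.93. Both batches entered the choice of members, so these are descriptions. The cultures also matched across batches. Among the members, replicates 2 and 3 of batch 2 correlated with cultures A and B and with C and D at 0.833 to 0.951, and at -0.298 to -0.0142 with the opposite pairs. ISC1 in AGY1613 was at -4.11 and 0.70 in replicates 2 and 3, as against -4.58 in A, -3.37 in B, 0.97 in C and 1.13 in D. The empty vector in AGY1611 at generation 0 stood at 195 CPM in A, 185 in B and 183 in replicate 2, against 38.9 in C, 16.8 in D and 18.4 in replicate 3. Replicate 1 was at 0.265 CPM. The closeness of the 2 batches is thus not one between independent pools. Without the batch 2 groups of AGY1611 and AGY1613, a setting chosen after the data were seen, the rule gave 150 members, 131 of them among the 145.

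The functions of the 145 members were spread over the cell. In classes assigned by hand after the members were known, the largest were metabolism of amino acids, sugars and nucleotides (14 members), mitochondrial respiration and gene expression (11) and sphingolipids, sterols and other lipids (11). RNA polymerase II transcription and chromatin held 10, as did ribosome assembly and translation. Cell cycle and chromosome segregation held 9, mRNA processing and binding 9, transporters 8, the secretory pathway 8, and signalling kinases, phosphatase and calcium sensors 8. Polarity, septum and eisosomes held 7, mitochondrial import, folding and turnover 6, tRNA maturation 6, RNA polymerase III 5, the proteasome and ubiquitin 5, and prefoldin 1. The remaining 17 are poorly characterised or fitted no class, and 9 members have no standard name.

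The lists of pathway genes below are set against the 3.42% of entries that were members, with the list's median beside the -0.05 over all entries. They are counts, without a test. Of 21 genes of sphingolipid metabolism, 3 were members. LCB1 (0.85) and CSH1 (0.53), a catalytic subunit of mannosylinositol phosphorylceramide synthase, act in synthesis, and ISC1 breaks down complex sphingolipids. The list's median was 0.28, and 16 of the 21 were above 0. LCB2, the partner of LCB1 in serine palmitoyltransferase, was no member, with a median of 0.02 and a range of -0.99 to 0.26. Among 18 genes of the mitochondrial ATP synthase, 3 were members, ATP14 (0.67), ATP16 (0.54) and ATP7 (0.52), all structural subunits. That list's median was 0.32. ATP11, which is needed to assemble the enzyme, was below 0 in all 10 groups, with a median of -0.75, and the median of ATP17 was -0.62. Of 19 genes of respiratory chain complexes II to IV, SDH3 (0.56), a membrane anchor of succinate dehydrogenase, was the single member, with a list median of 0.09.

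Of 27 proteasome genes, 3 were members, RPT2 (0.87), RPT3 (0.72) and RPT5 (0.64), all ATPases of the regulatory particle's base. The proteasome's list had a median of 0.22. The other ATPases of that ring were at 0.37 (RPT1), -0.05 (RPT4) and 0.33 (RPT6). In the prefoldin complex, GIM5 was the 1 member of 6, its 5 partners had medians of -0.06 to 0.27, and the list's was 0.25. Among 16 genes of the Glc7 phosphatase and its regulatory subunits, the members were GLC7 and AFR1 (0.54), a regulator of the pheromone response. The median of these 16 was 0.04.

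Single members came from several other lists. They were PAB1 among 7 genes of the cap-binding complex and poly(A)-binding protein (list median 0.04), and UBP13 (0.90) among 9 ubiquitin-specific proteases (0.26). HAL5 was the member among 6 genes of Hal5-type kinases and ion transport, whose median was -0.70, and 2 of those 6 were below 0 in all 10 groups. GPA2 (0.69), a G protein subunit that acts on cyclic AMP, was the member among 11 genes of Ras and protein kinase A signalling (list median -0.08). HIS3, an enzyme of histidine synthesis, was the member among 6 genes of that pathway, at 0.85 in a medium without histidine. Its barcode held 216 to 326 CPM at generation 0 and 248 to 1220 CPM at generation 10. The other 5 histidine genes were not members, and the list's median was 0.03. Glycolysis and fermentation gave PGK1 (0.72) and PGI1 (0.57) among 19 genes, with a list median of -0.22. Meiosis and sporulation gave ZIP1 (0.52), a protein of the synaptonemal complex, among 43, with a list median of -0.26. No gene of the 13 in the TOR complex 1 list was a member, and its median was 0.08.

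Ribosomal protein genes gave 3 members. Of 119 for the cytosolic ribosome, RPS30A (0.54) and RPS19B (0.50) were members (1.68%), and the list's median was -0.11. Of 62 for the mitochondrial ribosome, RSM26 (0.61) was the single member (1.61%, list median 0.02). RPS19B and RPS30A each have a paralog in the genome, and the counts are of plasmid barcodes, not of the genes' own sequence.

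Further groups were noticed only among the members, so their lists were drawn up afterwards and support nothing. RNA polymerase III and its factors had 5 members among 20: BDP1 (0.87), a subunit of TFIIIB, TFC1 (0.765), a subunit of TFIIIC, RPC34 (0.76), RPC31 (0.67) and RPC19 (0.58). Other genes of that list were below 0 in every group, with a median of -4.91 for TFC3, -1.345 for BRF1 and -0.98 for RPC40, and its median was 0.15. Of 3 genes of the SND route of protein targeting to the endoplasmic reticulum, SND3 (0.67) and SND2 (0.65) were members, SND1 was at 0.21, and the list's median was 0.65. Calmodulin (CMD1, 0.63), a calmodulin-dependent kinase (CMK2, 0.71) and a calcineurin regulator (RCN1, 0.53) were members among 7 genes of that list, whose median was -0.004. PCF11 (0.93), FIP1 (0.79) and GLC7, all of the cleavage and polyadenylation machinery, were members among 17 (list median 0.05), and the U1 snRNP proteins SNU56 (0.68) and SNU71 (0.51) among 8 (0.03). Mitochondrial protein import had 3 members of 25 with a list median of 0.0047, and its iron-sulfur cluster assembly 2 of 14 with 0.04. Ergosterol synthesis had 2 of 22 with a list median of -0.25, and 6 of the 22 were below 0 in all 10 groups.

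By chromosome, read from the systematic names, members made up 1.52% (1 of 66) of the entries of chromosome I to 5.83% (12 of 206) of those of chromosome V. Chromosome IV had 24 of 540 (4.44%), VII 11 of 419 (2.63%), XII 10 of 386 (2.59%) and XV 10 of 373 (2.68%). The median generation 0 count was 1378 for the members and 1159 for the 4238 entries, and the median length of the gene in the reference table was 1291.5 bases against 1131. YVC1, a vacuolar cation channel, is the 1 member with a second entry in the library. Its first entry had a median of 0.58 and was above 0 in all 10 groups, while its second had -0.08 and was above 0 in 4.

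At generation 5, where 3 of the 10 groups were also sampled, most members were already above their starting level. By CPM, 140 of 145 members were above their generation 0 level in AGY1611 (46.2% of the 4238 entries were), 145 in AGY1613 (47.4%) and 142 in AGY1860 (47.3%). In all 3 strains together it was 137 members, against 24.4% of entries. The members' median change was 0.37 in AGY1611, 0.43 in AGY1613 and 0.56 in AGY1860 at generation 5, and 0.75, 0.73 and 0.63 at generation 10. In AGY1611 and AGY1613, 139 members each lay between their generation 0 and generation 10 levels at generation 5. In AGY1860 it was 99, and 43 members were as high or higher at generation 5 than at generation 10. The matching counts over all entries were not made, so these are not read as a trait of the members. These libraries share the generation 0 samples, and the cultures, that chose the members, so they are no independent check.

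GLC7 in AGY1860 stood at 240, 280 and 296 CPM at generation 0, at 1361, 699 and 1291 at generation 5, and at 3146, 1310 and 2250 at generation 10. HAL5 in the same cultures went from 271, 252 and 261 CPM through 1148, 562 and 1080 to 3155, 1086 and 3574. The second culture was the lowest of the 3 for both genes at both later times.

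**Figure D4:**
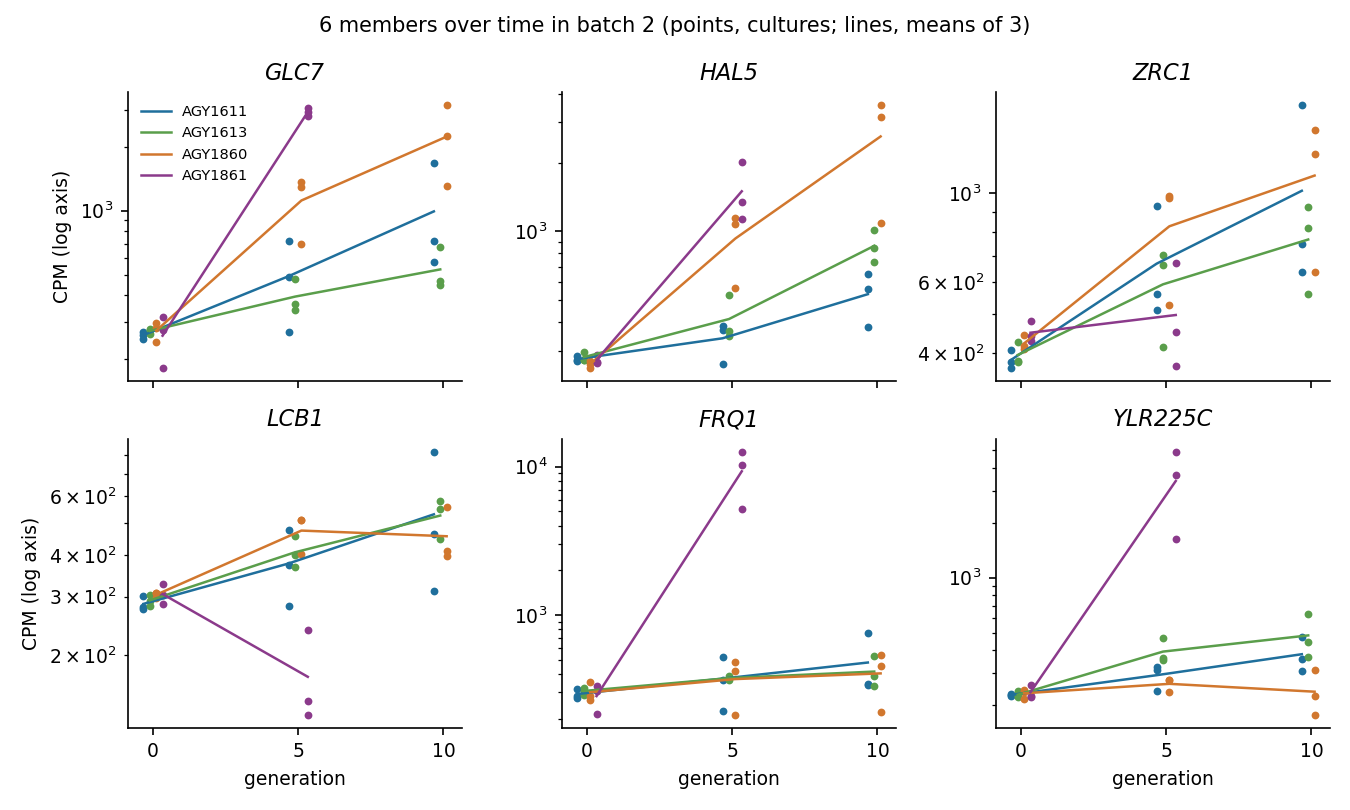
CPM on a log axis (vertical) at generations 0, 5 and 10 (horizontal) for 6 members in AGY1611, AGY1613, AGY1860 and AGY1861 of batch 2; points are cultures and lines join the means of 3 cultures. FRQ1 and YLR225C are far higher at generation 5 of AGY1861 than in any other strain plotted, and LCB1 is lower there than at generation 0.

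AGY1861 allows a test, since neither its generation 0 nor its generation 5 libraries were used to choose the members. With TMM scaling, 17 of the 145 members (11.7%) rose and 0 fell at an adjusted p under 0.05 in edgeR's quasi-likelihood test, with Benjamini-Hochberg adjustment over all 4579 entries tested. Over all 4579 entries, 117 (2.56%) rose and 1 fell. At an unadjusted p under 0.05, 42 members were higher and 0 lower, against 6.11% of entries higher and 1.68% lower. DESeq2 called 19 of 142 members higher and 0 lower, against 3.36% and 0.472% of the 3601 entries it tested. With the AGY1861 libraries fitted alone, edgeR called 35 members higher and 1 lower, against 6.48% and 5.31% of entries. The members' median log2 change was 0.35, against 0.00 over all entries, and 131 of the 145 were above 0.

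The direction depends on the scaling, because most barcodes lost share in AGY1861. At generation 5 the 10 most abundant barcodes held 32.4%, 38.6% and 25.1% of the counts of its 3 libraries, against at most 1.71% in any other generation 5 library and 12.6% in any generation 10 library. The members' own share of the counts was 4.22% ± 0.04 (SD, n = 3) at generation 0 and 5.38% ± 0.35 at generation 5. By CPM of the library total, the median change over the 4238 entries was -0.86, and that of the members was -0.54. Only 23 members were above 0, or 15.9%, against 4.48% of entries. With library size alone in the edgeR fit, 13 members rose (8.97%, against 1.59% of entries) and 44 fell (30.3%, against 43.9%). Relative to the median entry, 129 of the 145 members were higher.

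The largest of the 17 calls was FRQ1, the calcium-binding activator of the phosphatidylinositol 4-kinase Pik1. Its 3 cultures went from 213, 305 and 332 CPM to 12541, 10197 and 5175 CPM, and the groups did not overlap. The log2 change was 5.999 ± 0.42 (SE), with an adjusted p of 2.89e-16 in edgeR's test, whose spread was estimated from all batch 2 libraries. With the AGY1861 libraries fitted alone, the adjusted p of FRQ1 was 0.00164 (edgeR). In the 10 groups at generation 10, FRQ1 was near the lower end of the members, with a median of 0.54 and a highest value of 0.75. That difference between strains was not tested.

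YLR225C, a gene of unknown function, went from 260, 223 and 226 CPM to 4873, 3658 and 1619 CPM. Its change in AGY1861 was 4.82 ± 0.32 (SE; adjusted p 5.92e-17, edgeR). GLC7 rose by 4.42 ± 0.41 (adjusted p 6.94e-12, edgeR), from 182, 274 and 317 CPM to 2790, 3049 and 2923 CPM. For both genes every generation 5 culture was above every generation 0 library.

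PIL1, the core protein of eisosomes, rose by 3.90 ± 0.33 (adjusted p 2.25e-13, edgeR), from 338, 363 and 439 CPM to 2254, 3693 and 2849 CPM. PAB1 rose by 3.77 ± 0.28 (adjusted p 4.11e-15, edgeR), from 407, 349 and 343 CPM to 2321, 3077 and 2313 CPM. HAL5 rose by 3.35 ± 0.39 (adjusted p 3.82e-09, edgeR), from 265, 286 and 267 CPM to 1134, 1348 and 2011 CPM. In PIL1, PAB1 and HAL5 the 2 generations were also fully apart. The share of all entries separated in this way in AGY1861 was not counted. No weight is placed on the separation here, or for FRQ1, YLR225C and GLC7.

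VAN1 rose by 3.51 (adjusted p 8.51e-06, edgeR) and TCD2 by 2.76 (8.90e-08). PAF1, UBP13, CSH1, FIP1 and SBP1 rose by 1.48 to 1.95, each with an adjusted p of at most 1.44e-05. Also called were PNC1, the nicotinamidase (1.12), CDC5 (1.10), SND3 (1.03) and CMD1 (0.64, adjusted p 0.0112). These last 4 were not called with library size alone, where CMD1 was at -0.23. CDC5 (0.93) and SND3 (0.82) also lost their call without replicate 2, PNC1 (0.79) without replicate 3, and CMD1 (0.58 to 0.70) without any 1 of the 3. The other 13 were called, and higher, in all 10 alternatives, but the size of their adjusted p depended on the fit. With the AGY1861 libraries fitted alone in edgeR, it was 0.0027 for YLR225C and 0.0012 for GLC7 and HAL5. In that fit it was 0.0016 for PIL1 and 0.0015 for PAB1 and TCD2.

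Members prominent in the other strains were not all high in AGY1861. ZRC1 had a log2 change of 1.02 ± 0.30 (SE) with an adjusted p of 0.0506 in edgeR's test, TCM62 had 0.62 (0.746) and LYS9 had -0.06 (0.988). GIM5 was the lowest of the members, at -1.15 ± 0.83 (adjusted p 0.886), from 37.7, 39.1 and 38.1 CPM to 12.7, 6.82 and 9.38 CPM. LCB1, above 0 in all 34 generation 10 cultures, went from 327, 304 and 285 CPM to 145, 133 and 239 CPM in AGY1861, a log2 change of 0.06 ± 0.22 after TMM scaling (adjusted p 0.983). LCB2, which is no member, was called higher in AGY1861 at 3.71 (adjusted p 2.89e-16, edgeR). None of the members of the proteasome, ATP synthase or RNA polymerase III lists passed the test in either direction, with log2 changes of 0.02 to 0.62.

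**Figure D5:**
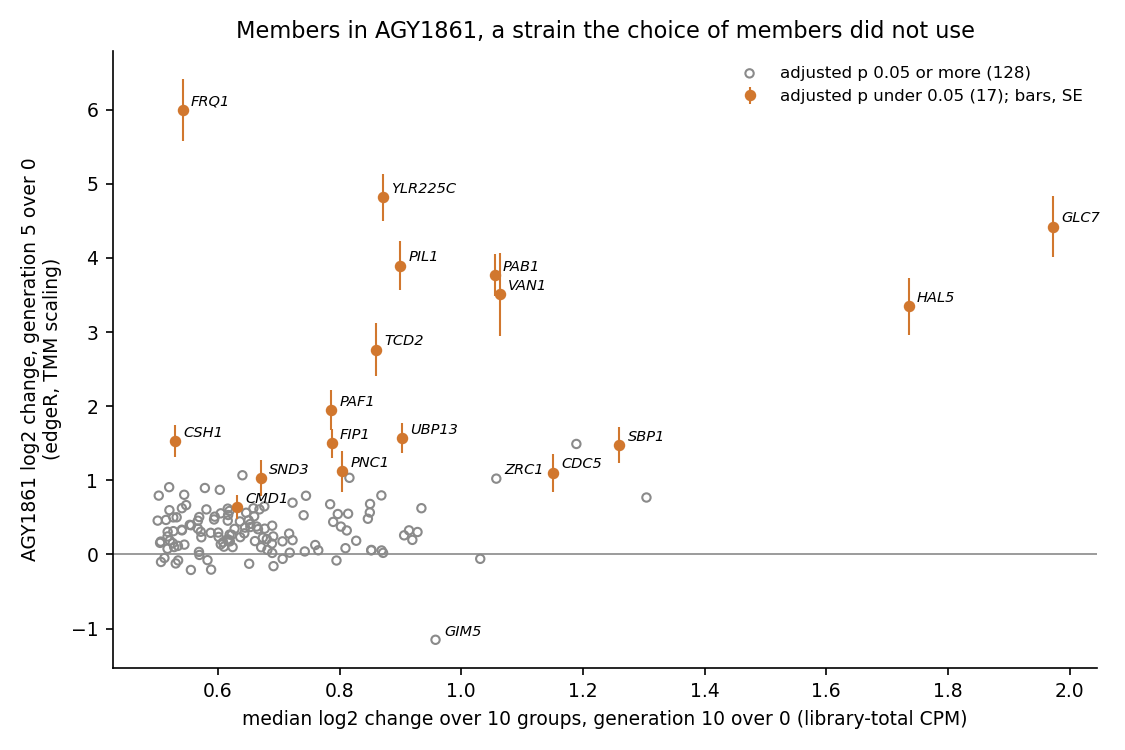
Median log2 change over the 10 groups at generation 10 (horizontal axis) and log2 change at generation 5 in AGY1861 after TMM scaling (vertical axis) for the 145 members; filled points passed an adjusted p of 0.05 in edgeR's test, with bars for the SE. The 17 called members are all above 0, from CMD1 at 0.64 to FRQ1 at 5.999, and GIM5 is lowest at -1.15.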

How the data were processed

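Plasmid barcodes from 83 libraries (32 of batch 1, 51 of batch 2) were amplified with 20 PCR cycles and sequenced, per the labels' protocols. The authors deposited raw whole-number counts for each library entry, as 1 table for either batch. The matching of reads to barcodes is not given in the sources used here. No molecular identifiers are mentioned in the sources used here, so the counts are taken as PCR reads rather than independent molecules.

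Members were found from CPM of the library total with a pseudocount of 1. Gene names came from the RefSeq gene table of assembly R64, which matched 144 of the 145 members. AGY1861 was tested in a fit to all batch 2 libraries with edgeR 4.0.16 (TMM, quasi-likelihood test, a coefficient for every strain at every generation, and filterByExpr with min.count 10), without the empty vector. Alternatives were DESeq2 1.42.0, other scalings, filters and pseudocounts, a replicate block, AGY1861 libraries alone, and leaving out replicates.

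The members, lists and tests were chosen with earlier results of these data known. Named were the 12 members with the highest median, up to 10 called in AGY1861 by lowest adjusted p, members on a list, a member with a second entry, and 3 entries on each side of the threshold. Among the 12 and those with a median of at least 1, the 5 with the smallest SD over the 10 group values were named too. Other genes (ATG32, NDL1, NDC80, LPD1 and those of the lists drawn up later, among others) were chosen after their values were seen.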

Additional observations from a re-analysis of the deposited data

Results flagged for a closer look

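The 12 members with the highest median and the members called in AGY1861 with the lowest adjusted p, 19 in all, were checked for a single culture standing apart among the 4 of each batch 1 strain at generation 10. Of 76 groups, 2 had such a culture by Dixon's test at 95%, and chance gives about 1 in 20 groups of independent cultures. Cultures A and B, and C and D, follow each other closely, so that rate does not carry over to these groups. SBP1 in AGY1612 had 626 CPM in culture C, against 488 to 495 CPM in the other 3 cultures. CDC5 in AGY1613 had 435 CPM in culture C, against 552 to 573 CPM in the other 3. In both cases culture C was still above all 4 generation 0 libraries of its strain. No member checked had all 3 AGY1861 cultures below and all 3 cultures of AGY1611, AGY1613 or AGY1860 above the median entry at generation 5.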

How the results depend on the processing

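With TMM-scaled library sizes the rule gave 359 members in place of 145, and 31 of the 145 in place of 10 were above 0 in every culture. The members' median change at generation 5 of AGY1861 was 0.349 with that scaling and -0.537 by library total, since most entries lost share there. Other pseudocounts, count minimums, library totals without the empty vector, single-culture ratios and averaged batches gave 100 to 155 members. In AGY1861, edgeR called 17 members higher and 0 lower. The count was 35 higher and 1 lower in AGY1861 libraries alone, where 6.48% and 5.31% of all entries were called, and 44 were lower with library size alone, where CMD1 was at -0.232. Leaving out each replicate in turn gave 114 to 151 members (without replicate 1 and replicate B), and 10 to 17 in every culture. These were not all the same genes. Of the 145 members, 123 to 132 were kept without 1 of replicates A to D, and 103 to 107 without replicate 1, 2 or 3. Leaving out replicates also gave 118 to 130 members higher at generation 5 in AGY1611, AGY1613 and AGY1860, where the share of all entries was not counted. In AGY1861, 14 to 16 members were called higher, against 1.52% to 2.18% of entries, and 0 lower. The AGY1861 median ran from -0.812 to -0.369. With the replicate block, 22 members were called higher (3.1% of entries) and 0 lower. The replicate numbers are not stated to pair AGY1861's generation 0 and generation 5 libraries, and their deviations correlated at 0.0585 to 0.356. Without the batch 2 groups of AGY1611 and AGY1613 the rule gave 150 members, with 13 of the 145 above 0 in every remaining culture. Whether depth limits single members was not tested.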

Other observations

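AGY1614 held the most members with large values. In that strain 13 members were at 2 or more, against at most 5 in any other group, while the median over the 4238 entries was -0.44. The 95th percentile over the 4238 entries was also highest there, at 1.05, against 0.78 to 0.98 in the other groups. The share of all entries at 2 or more was not counted. Among these 13, GLC7, SBP1, CDC5, VAN1, PAB1 and ERG25 were above 1.7 in both culture pairs. GYP8, a GTPase-activating protein of the secretory pathway, was at 3.00 in cultures A and B and at -0.24 in C and D, and OYE3, an NADPH dehydrogenase, at 3.57 and -0.31. FYV6, a splicing factor, was at 0.38 in A and B and at 3.17 in C and D. AIM26 was the largest member of AGY1862, at 1.63, and was at 0.05 to 0.94 in the other 9 groups. These genes were chosen after their values were seen, and no difference between strains was tested.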
